A study of Mus musculus with 82 samples.

Results

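The 10 genes described here are osteogenic and calcification regulators of vascular smooth muscle cells (VSMC), taken from the 55401 genes of the count tables by their gene names. They comprise Spp1, 5 osteochondrogenic factors (Runx2, Sox9, Bmp2, Bmp4 and Alpl) and 4 calcification inhibitors (Enpp1, Ank, Mgp and Tnfrsf11b). All 10 were found, and all 10 passed the filter on low counts after 24 h and after 48 h. The question was whether Spp1, which the study itself had singled out as up-regulated in these libraries, rose together with an osteogenic program, so the rise of Spp1 is no independent evidence here. Outside these libraries, the study also reported higher Spp1 with EGF+U46619 by qPCR on RNA from other mice. It reported more of the secreted protein by ELISA as well.

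RNA-sequencing was performed on primary aortic VSMC isolated from C57BL/6 mice. After a period in medium without serum and supplements, the cells were incubated with EGF (10 µg/L, ligand of the epidermal growth factor receptor EGFR), angiotensin II (AngII, 10 nM, ligand of AT1R), U46619 (1 µM, agonist of the thromboxane receptor TP), their combinations, or none of them (control). The 24 h experiment held control, each agent alone, EGF with AngII, EGF with U46619 and the triple combination, thus 7 groups with n = 6 cultures, and every one of 6 mice gave a culture to each group. The 48 h experiment held 6 groups and came as 2 batches, an EGF/U46619 batch with control, EGF, U46619 and EGF+U46619 and an EGF/AngII batch with control, EGF, AngII and EGF+AngII, with n = 5 cultures per group of a batch and thus n = 10 for control and EGF. Same-numbered cultures within a batch form a culture set. The labels give 4 mouse numbers for the 5 culture sets of the EGF/U46619 batch and 3 for those of the EGF/AngII batch. All cells had been expanded in a medium that contained serum and EGF, and the age of the mice is not given in the labels. Values are CPM of edgeR with TMM scaling, called FPM here, and a gene is called changed where 2 tools, edgeR (quasi-likelihood) and DESeq2 (Wald), both gave an FDR under 0.05 and its mean reached 5 FPM in a group compared.

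In the vessel wall, VSMC can take on traits of bone- and cartilage-forming cells and deposit mineral. Runx2 and Sox9 are the transcription factors that drive the osteoblast and chondrocyte lineages, Bmp2 and Bmp4 are secreted ligands that induce them, and Alpl (tissue-nonspecific alkaline phosphatase) degrades pyrophosphate, an inhibitor of mineral growth. Enpp1 generates pyrophosphate from extracellular ATP, Ank is needed for the release of ATP and pyrophosphate from the cell, Mgp (matrix Gla protein) restrains mineral deposition in the matrix, and Tnfrsf11b encodes osteoprotegerin, the decoy receptor for RANKL. Spp1 encodes osteopontin, an acidic phosphoprotein of bone matrix that binds integrins and CD44, inhibits crystal growth, and is also made by proliferating VSMC and by macrophages, so its transcript alone does not define an osteogenic cell.

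The counts cover exons of the 10 genes, all protein-coding. In GRCm38, Spp1 lies at chr5:104435118-104441050 (plus strand), Runx2 at chr17:44495987-44814797 (minus), Sox9 at chr11:112782224-112787760 (plus), Bmp2 at chr2:133552159-133562885 (plus), Bmp4 at chr14:46383520-46390669 (minus), Alpl at chr4:137741733-137796384 (minus), Enpp1 at chr10:24637914-24712159 (minus), Ank at chr15:27466677-27594909 (plus), Mgp at chr6:136872435-136875823 (minus) and Tnfrsf11b at chr15:54250619-54278484 (minus). Of the 5 genes called higher with EGF+U46619 after 24 h, Spp1 and Enpp1 had the 2 largest rises. Runx2, also among them, is the osteogenic factor whose binding letters were searched. The promoters of those with an entry, Spp1, Enpp1, Ank and Runx2, are shown here. Each runs from 250 bases before to 50 bases after the RefSeq start (GRCm38.p6), read 5′ to 3′ on the gene's strand, and capitals mark matches to the RUNX motif TGTGGT on either strand, here all on the opposite strand as ACCACA.
Spp1, chr5:104434861-104435160, plus strand: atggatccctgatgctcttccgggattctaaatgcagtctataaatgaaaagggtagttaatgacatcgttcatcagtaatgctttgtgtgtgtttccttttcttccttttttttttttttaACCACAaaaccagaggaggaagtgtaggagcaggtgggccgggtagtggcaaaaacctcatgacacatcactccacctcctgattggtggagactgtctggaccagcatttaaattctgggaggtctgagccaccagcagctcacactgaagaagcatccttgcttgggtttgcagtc
Enpp1, chr10:24712110-24712409, minus strand: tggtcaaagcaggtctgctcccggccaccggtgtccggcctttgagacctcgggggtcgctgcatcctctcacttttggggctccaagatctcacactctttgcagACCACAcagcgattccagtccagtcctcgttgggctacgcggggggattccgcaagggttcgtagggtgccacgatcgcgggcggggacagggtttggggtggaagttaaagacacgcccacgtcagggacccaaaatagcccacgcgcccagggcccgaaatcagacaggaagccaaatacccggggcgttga
Ank, chr15:27466427-27466726, plus strand: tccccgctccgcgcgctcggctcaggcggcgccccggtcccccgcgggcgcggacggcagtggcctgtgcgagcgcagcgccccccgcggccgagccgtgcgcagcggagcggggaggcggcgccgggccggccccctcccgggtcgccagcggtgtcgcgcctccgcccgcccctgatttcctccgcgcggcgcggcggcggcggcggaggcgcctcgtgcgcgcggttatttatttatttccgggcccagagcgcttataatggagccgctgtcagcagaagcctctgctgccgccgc
Runx2, chr17:44814578-44814877, minus strand: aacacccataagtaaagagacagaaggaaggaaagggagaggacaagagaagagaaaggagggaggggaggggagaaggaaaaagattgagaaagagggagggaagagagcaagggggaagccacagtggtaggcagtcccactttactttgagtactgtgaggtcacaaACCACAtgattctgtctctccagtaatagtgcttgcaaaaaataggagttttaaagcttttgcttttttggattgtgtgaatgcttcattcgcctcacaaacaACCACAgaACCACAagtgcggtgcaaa
The RUNX motif was present once in the Spp1 window, from 128 to 123 bases before the start, once in the Enpp1 window, from 144 to 139 bases before it, and 3 times in the Runx2 window, and it was not found in the windows of Ank, Bmp4 and Alpl or at a further start of Spp1. It occurs in 16.8% of the 32851 RefSeq promoter windows of this length, so the matches are a description only. The AP-1 motif TGANTCA, present in 7.81% of all windows, and the CArG box, present in 1.63%, were found in none of the 8 windows of the 6 members with an entry. Matches of different motifs therefore did not overlap.

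Libraries held 16483529 to 20818809 counts in the 24 h and 19936925 to 33916114 counts in the 48 h experiment. All genes of chromosomes 9, X, Y and MT are listed at 0 in all libraries, which touches none of the 10 genes but some genes of the lists used further on. The smooth muscle markers Acta2 (352 to 15200 FPM over the 42 libraries of 24 h) and Cald1 (381 to 4060 FPM) were present in all libraries, while Myh11 ranged from 0.149 to 276 FPM. Endothelial markers were also present, in a pattern between mice that is described with Bmp2. Among macrophage markers, Ptprc, Adgre1, C1qa, Itgam and Tyrobp stayed under 1 FPM in all 24 h libraries and in all 10 cultures with U46619 of 48 h, but Adgre1 reached 33.1 FPM and Tyrobp 20.6 FPM in other cultures of 48 h. After 48 h, the control library of replicate 4 of the EGF/AngII batch stood apart. Its deviations from the group mean correlated at −0.28 with those of its own culture set and at 0.859 with those of replicate 2 of that batch. The control library of replicate 2 of that batch correlated at 0.536 with its own set, against 0.772 to 0.79 for the other cultures of that set, so the 48 h changes of the 10 genes and of the named list genes with EGF+U46619 are given within the EGF/U46619 batch as well, which does not contain either library.

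Levels per kilobase of exon differed widely between the genes. In the 24 h controls, the median level was 1064 FPM per kb for Mgp, 26.2 for Bmp4, 23.5 for Ank, 14.1 for Spp1, 5.56 for Sox9, 2.55 for Runx2, 1.08 for Bmp2, 0.951 for Tnfrsf11b, 0.358 for Enpp1 and 0.11 for Alpl. Thus an inhibitor of calcification was by far the most abundant of these transcripts in unstimulated cells. By the median, alkaline phosphatase was the least abundant, although its control of mouse 6 held 21.6 FPM. Because the levels of Bmp4, Bmp2, Tnfrsf11b, Spp1 and Alpl spread widely between mice, their ranks next to other genes were not separated beyond that spread.

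Spp1 rose strongly with EGF+U46619 at both time points. After 24 h, the control cultures held 1.92 to 109 FPM (median 23.2), EGF 29.4 to 363 FPM (median 117), AngII 2.23 to 87.9 FPM (median 23.8), U46619 2.61 to 612 FPM (median 111), EGF+AngII 42.6 to 397 FPM (median 85.8), EGF+U46619 13.9 to 531 FPM (median 340.3) and EGF+AngII+U46619 18.6 to 494 FPM (median 282). The groups overlapped because the mice started from different levels, at 1.92, 6.78 and 5.04 FPM in the controls of mice 1 to 3 and at 70.2, 39.5 and 109 FPM in those of mice 4 to 6. Within each mouse, however, EGF+U46619 was higher than control in 6 of 6 mice, by between 0.88 (mouse 4) and 6.58 (mouse 3) on the scale of log2(FPM + 0.5). The fitted log2-fold change was 3.23 ± 0.73 (SE, edgeR FDR 0.000741, DESeq2 FDR 1.23e-05), that is 9.37-fold. U46619 alone raised Spp1 by 1.93 ± 0.69 (edgeR FDR 0.0288), EGF+AngII by 2.54 ± 0.73 (edgeR FDR 0.048) and EGF+AngII+U46619 by 2.98 ± 0.72 (edgeR FDR 0.00122), each in 6 of 6 mice. EGF alone reached a log2-fold change of 2.40 ± 0.72 in 6 of 6 mice but passed DESeq2 only (FDR 0.022, edgeR FDR 0.101), and AngII alone gave −0.02 ± 0.66. The call for U46619 was lost without mouse 2 (edgeR FDR 0.127), mouse 5 (0.0582) or mouse 6 (0.0798), whereas the call for EGF+U46619 was kept without any 1 mouse.

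After 48 h, the 5 cultures with EGF+U46619 held 141, 1118, 720, 1057 and 869 FPM of Spp1 in replicates 1 to 5, and the 5 controls of the same batch held 53.6, 38.6, 39.3, 21.9 and 32.2 FPM. Within this batch the groups did not overlap, and replicate 1 had the smallest rise. U46619 alone gave 85.5, 258, 139.7, 254 and 129.7 FPM, also above all 5 controls of the batch, and EGF alone 78.1, 123, 65.7, 60.9 and 110.3 FPM. In the EGF/AngII batch, controls reached 192 FPM (replicate 1), AngII 54 to 270.3 FPM and EGF+AngII 40.6 to 189.5 FPM. The log2-fold change of EGF+U46619 against all controls was 3.65 ± 0.48 (edgeR FDR 2.2e-05), or 12.5-fold, and within the EGF/U46619 batch, with the culture set as block, 4.23 ± 0.435 (edgeR FDR 3.34e-06). For U46619 alone the log2-fold change of 1.46 ± 0.47 was past the threshold in DESeq2 (FDR 0.0273) but not in edgeR (FDR 0.0664), whereas within the batch it was 2.08 ± 0.40 (edgeR FDR 0.00132). Macrophage markers summed to 43.8 to 80.8 FPM in the U46619 cultures and 41.3 to 77.4 FPM in the EGF+U46619 cultures of 48 h, against 58.4 to 145.8 FPM in the controls of that batch. Lyz2 alone held 35.7 to 123 FPM in these controls. Within the batch, 2 of these 9 markers were called with EGF+U46619, Csf1r (0.68 ± 0.14, higher) and Lyz2 (−1.265 ± 0.124, lower). Cd68 was also higher (1.159 ± 0.211, edgeR FDR 0.000599, DESeq2 FDR 2.42e-06) but not called. The others had an edgeR FDR of 0.146 or more, in both directions. Csf1r, Lyz2 and Cd68 were named after their values were seen. Of all genes, 23.6% were called within the batch. In the EGF/AngII batch the control sums were 43.8 to 694 FPM, and its replicate 1, with 27.5 FPM of Adgre1 and 553 FPM of Lyz2, was also the control with the most Spp1. The part of macrophages in the level of Spp1 was not tested.

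**Figure D1:**
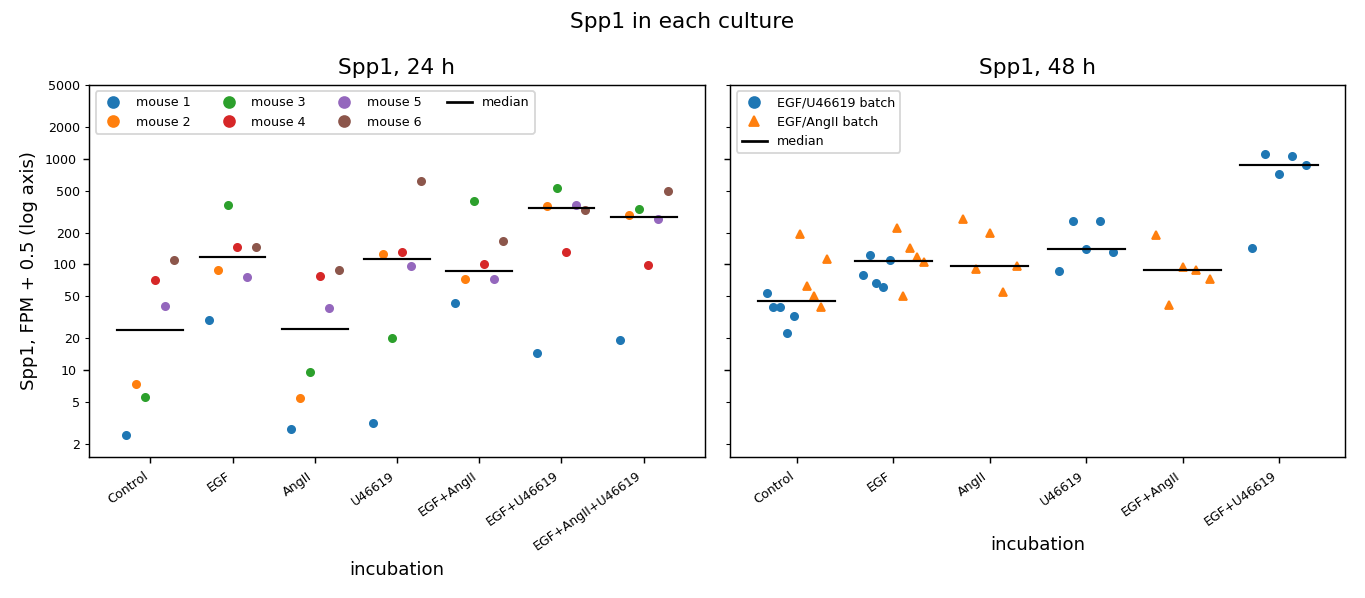
Spp1 in each culture, as FPM + 0.5 on a log axis, by incubation after 24 h (left, colours are mice) and 48 h (right, symbols are batches), with horizontal lines at group medians. After 24 h the mice spread from 1.92 to 109 FPM in control, and after 48 h 4 of the 5 EGF+U46619 cultures lie at 720 FPM or higher.

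Runx2, the master regulator of osteoblast differentiation, changed far less than Spp1. After 24 h it was measured at 13.7 to 24.6 FPM (median 22.6) in control, 13.1 to 36.4 FPM (median 23.1) with U46619 and 18.6 to 45.3 FPM (median 29.6) with EGF+U46619, and the groups overlapped. The log2-fold change with EGF+U46619 was 0.49 ± 0.17 (1.4-fold, edgeR FDR 0.0189), with higher values in 5 of 6 mice and a lower one in mouse 6, and it was 0.44 ± 0.17 (edgeR FDR 0.0335) with EGF+AngII+U46619, a call that was lost without mouse 1, 2, 4 or 5. With U46619 alone it was 0.19 ± 0.17 (edgeR FDR 0.387), and with EGF alone 0.33 ± 0.17 (edgeR FDR 0.298). The call for EGF+U46619 was lost without mouse 1 (edgeR FDR 0.101), mouse 4 (0.0538) or mouse 5 (0.0615). After 48 h, Runx2 was at 20.9, 22, 27.6, 24.6 and 27.2 FPM with EGF+U46619 and at 24.5, 19.3, 15.5, 17 and 21.5 FPM in the controls of that batch, with a log2-fold change of 0.47 ± 0.26 (edgeR FDR 0.254) against all controls and 0.33 ± 0.14 (edgeR FDR 0.0806) within the batch, neither past the threshold.

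Sox9, the chondrogenic transcription factor, went the other way. After 24 h it ranged from 10.8 to 46.4 FPM (median 23.0) in control, 3.82 to 18.9 FPM (median 8.93) with U46619 and 5.29 to 18.1 FPM (median 13.2) with EGF+U46619, so that the stimulated cultures lay at the lower end of the controls. U46619 lowered it in 6 of 6 mice, with a log2-fold change of −1.29 ± 0.33 (edgeR FDR 0.00317), and EGF+U46619 in 5 of 6 mice, with −0.91 ± 0.33 (edgeR FDR 0.0265), the exception being mouse 3. The triple combination gave −0.91 ± 0.33 (edgeR FDR 0.0267), which was not called without mouse 1, 2, 5 or 6, while EGF alone (0.02 ± 0.32), AngII alone (0.04 ± 0.32) and EGF+AngII (0.11 ± 0.32) were not past the threshold. The call for EGF+U46619 was lost without mouse 1, 2 or 5 (edgeR FDR 0.132, 0.121 and 0.0835), and that for U46619 was kept without any 1 mouse. After 48 h, Sox9 was at 14.3, 11, 28.2, 19.6 and 33.2 FPM with U46619 and at 16.8, 18.9, 34.7, 22.3 and 46.9 FPM with EGF+U46619, against 39, 26, 52.3, 23 and 56.8 FPM in the controls of the batch. It was thus lower in 5 of 5 culture sets in both comparisons. Against all controls neither change was called (−0.81 ± 0.29, edgeR FDR 0.093, and −0.41 ± 0.28, edgeR FDR 0.372), but within the batch both were (−0.91 ± 0.14, edgeR FDR 0.000274, and −0.51 ± 0.14, edgeR FDR 0.0107).

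Of the bone morphogenetic proteins, Bmp4 fell and Bmp2 was not called. Bmp4 was at 7.03 to 368 FPM (median 58.9) in the 24 h controls, 2.48 to 355 FPM (median 40) with U46619 and 0.614 to 390.1 FPM (median 21.3) with EGF+U46619, with mouse 6 far above the others in all 7 groups. EGF+U46619 was lower than control in 5 of 6 mice, with a log2-fold change of −1.21 ± 0.30 (edgeR FDR 0.00197), and the triple combination in 6 of 6 mice, with −1.24 ± 0.30 (edgeR FDR 0.00139). With U46619 alone the value was −0.46 ± 0.30 (edgeR FDR 0.235). After 48 h, Bmp4 was at 266, 23.7, 54.5, 78.8 and 47.5 FPM with EGF+U46619 against 265, 32.5, 172.9, 124.4 and 158.4 FPM in the controls of the batch. The log2-fold change of −1.5025 ± 0.55 against all controls missed the threshold in edgeR (FDR 0.083), and that within the batch passed it (−0.89 ± 0.19, edgeR FDR 0.00219). Controls of the EGF/AngII batch were higher, at 105.6 to 747 FPM, and include both libraries that stood apart (486 and 747 FPM).

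Bmp2 was found in 3 of the 6 mice after 24 h. It had at most 5 counts per library, or 0.23 FPM, in the 21 cultures of mice 1 to 3 and 5.34 to 35.4 FPM in the 21 cultures of mice 4 to 6, in each of the 7 incubations. Its log2-fold change was −0.59 ± 0.37 with U46619 (edgeR FDR 0.217) and −0.41 ± 0.38 with EGF+U46619 (edgeR FDR 0.4), which rests on the latter 3 mice. After 48 h it was at 0.0399 to 2.94 FPM with EGF+U46619 and 0.305 to 5.36 FPM in the controls of the batch, lower in 5 of 5 culture sets for EGF+U46619 and for U46619 alone. These group means lie under 5 FPM, so that no call was possible, although the log2-fold changes within the batch (−0.96 ± 0.29 and −1.10 ± 0.30) had an edgeR FDR of 0.0196 and 0.0135.

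Alpl was barely detected. After 24 h it was at 0 to 0.776 FPM in the controls of mice 1 to 5 and at 21.6 FPM in that of mouse 6, and with EGF+U46619 at 0.092 to 0.411 FPM and 4.75 FPM, respectively. The log2-fold change with EGF+U46619 was −1.17 ± 0.64 (edgeR FDR 0.142), with U46619 −0.01 ± 0.57 (edgeR FDR 0.995), and after 48 h all 40 cultures lay at or below 2.5 FPM. Against EGF, EGF+U46619 was lower after 24 h by a log2-fold change of −1.95 ± 0.62 (edgeR FDR 0.0284, DESeq2 FDR 0.0261), but both group means were under 5 FPM, so this was no call. In all groups of both time points the mean of Alpl was under 5 FPM, so that no change of it could be called. The positive log2-fold changes against control were largest with EGF after 24 h (0.78 ± 0.54, edgeR FDR 0.453) and U46619 after 48 h (0.93 ± 0.56, edgeR FDR 0.325), and after 48 h EGF+U46619 gave 0.54 ± 0.58 against all controls and 0.57 ± 0.55 within the batch, none past the threshold.

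Late osteoblast genes were measured at low levels. Sp7 (osterix, which acts after Runx2) did not exceed 4.72 FPM in any culture of 24 h and 1.58 FPM in any of 48 h, Bglap (osteocalcin) stayed at or below 2.38 and 4.33 FPM, and Ibsp (bone sialoprotein) reached at most 0.151 and 0.0996 FPM. The median of Sp7 with EGF+U46619 was 0 FPM after 24 h and 0.0399 FPM after 48 h, and that of Bglap was 0.053 and 0.158 FPM, against 0.154 and 1.31 FPM in control. The highest levels of these 3 genes stayed under the 5 FPM that a call requires.

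Among the calcification inhibitors, Enpp1 had the largest rise with EGF+U46619 after 24 h, while with U46619 alone that of Tnfrsf11b was larger. After 24 h it was at 2.16 to 13.3 FPM (median 3.67) in control, 4.6 to 39.5 FPM (median 11.3) with EGF, 5.67 to 35.9 FPM (median 10.6) with U46619 and 4.5 to 49.5 FPM (median 25.8) with EGF+U46619. It was higher than control in 6 of 6 mice with each of these incubations, and mouse 6 had the lowest level with EGF+U46619. The log2-fold change was 2.17 ± 0.40 with EGF+U46619 (4.51-fold, edgeR FDR 8.99e-05), 2.24 ± 0.40 with EGF+AngII+U46619 (edgeR FDR 4.96e-05), 1.54 ± 0.40 with EGF+AngII (edgeR FDR 0.0408) and 1.42 ± 0.40 with U46619 (edgeR FDR 0.00606), and 1.52 ± 0.40 with EGF, which passed DESeq2 (FDR 0.0139) but not edgeR (FDR 0.088). The call for U46619 was lost without mouse 2 (edgeR FDR 0.052), and that for EGF+U46619 was kept without any 1 mouse. After 48 h, EGF+U46619 gave 12, 43.5, 28.2, 47.6 and 8.26 FPM against 10.2, 33.7, 3.92, 16.5 and 1.83 FPM in the controls of the batch, higher in 5 of 5 culture sets although the groups overlapped. The log2-fold change of 1.33 ± 0.49 passed DESeq2 (FDR 0.0442) but not edgeR (FDR 0.0831) against all controls and both within the batch (1.34 ± 0.28, edgeR FDR 0.00166).

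Ank rose less than Enpp1. After 24 h it was at 49.6 to 101.5 FPM (median 84.8) in control, 62.9 to 304 FPM (median 168.5) with EGF, 39.7 to 153.7 FPM (median 79.7) with U46619 and 49.9 to 311 FPM (median 114) with EGF+U46619. With EGF, mice 1 to 3 held 238, 284 and 304 FPM, above all controls, and mice 4 to 6 held 99.3, 62.9 and 70.6 FPM. The log2-fold change was 0.98 ± 0.24 with EGF (6 of 6 mice higher, DESeq2 FDR 0.0112, edgeR FDR 0.071, not called), 0.83 ± 0.235 with EGF+AngII (edgeR FDR 0.048) and 0.64 ± 0.235 with EGF+U46619 (5 of 6 mice, with mouse 2 lower, edgeR FDR 0.0275), and 0.09 ± 0.23 with U46619 alone (edgeR FDR 0.801). The call for EGF+U46619 was lost without mouse 1 (edgeR FDR 0.0744), mouse 3 (0.189) or mouse 4 (0.0587). After 48 h, EGF+U46619 gave 229, 125, 148.3, 267 and 118 FPM against 133, 89.3, 89.6, 146 and 62.5 FPM in the controls of the batch, higher in 5 of 5 culture sets, with a log2-fold change of 0.92 ± 0.25 (1.89-fold, edgeR FDR 0.0218) and of 0.77 ± 0.11 within the batch (edgeR FDR 6.81e-05). Without both control libraries of the EGF/AngII batch that stood apart it was 0.84 and not called (edgeR FDR 0.0545), and the call was also lost without culture set 1, 3 or 4 of the EGF/U46619 batch (edgeR FDR 0.053, 0.0677 and 0.0734) and with the batch as a further term (0.69, edgeR FDR 0.132).

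Tnfrsf11b rose with U46619 after 24 h and was not called after 48 h. It was at 0.0599 to 28.5 FPM (median 2.68) in the 24 h controls, 3.35 to 84 FPM (median 5.55) with U46619 and 0.92 to 56 FPM (median 7.56) with EGF+U46619. Of the controls, mouse 6 stood far above the others. The log2-fold change was 1.80 ± 0.51 with U46619 (6 of 6 mice higher, edgeR FDR 0.00678), 1.59 ± 0.51 with EGF+U46619 (5 of 6 mice, with mouse 3 lower, edgeR FDR 0.0133) and 1.84 ± 0.52 with the triple combination (edgeR FDR 0.00453). The calls for U46619 (edgeR FDR 0.0519) and EGF+U46619 (0.0522) were lost without mouse 2, and the latter also without mouse 1 (0.0559). After 48 h, the 5 cultures with U46619 held 52.6, 7.18, 49.7, 21.5 and 25.6 FPM, those with EGF+U46619 48.6, 4.96, 52.8, 18.1 and 11.8 FPM and the controls of the batch 19.7, 5.42, 42.5, 26.4 and 55.7 FPM, without a common direction. The log2-fold changes were 0.09 ± 0.36 and −0.22 ± 0.37 (edgeR FDR 0.912 and 0.744) against all controls and 0.04 ± 0.32 and −0.24 ± 0.32 within the batch, and whether they differ from those of 24 h was not tested. Its ligand Tnfsf11 (RANKL) stayed at or below 2.57 FPM and the signalling receptor Tnfrsf11a (RANK) at or below 4.41 FPM in all cultures.

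Mgp, the most abundant of the 10, was not called in any comparison with all mice. After 24 h it was at 464 to 3867 FPM (median 1263) in control, 501 to 2657 FPM (median 646) with U46619 and 708 to 2074 FPM (median 1057) with EGF+U46619, lower than control in 4 of 6 mice in both cases. The log2-fold change was −0.64 ± 0.35 with U46619 (95% interval −1.35 to 0.08, edgeR FDR 0.16) and −0.33 ± 0.35 with EGF+U46619 (95% interval −1.05 to 0.38, edgeR FDR 0.475). Without mouse 3, however, the lower Mgp with U46619 was called. EGF+U46619 against EGF gave −0.84 ± 0.35 after 24 h, lower in 5 of 6 mice (edgeR FDR 0.0983), and this was called without mouse 3 or without mouse 6. After 48 h the changes with U46619 and EGF+U46619 were −0.06 ± 0.57 and 0.33 ± 0.57 against all controls and −0.1 ± 0.19 and 0.43 ± 0.19 within the batch (edgeR FDR 0.738 and 0.0892), with levels between 254 and 9759 FPM over all cultures. EGF alone gave 0.51 ± 0.35 after 24 h and 0.75 ± 0.47 after 48 h, higher than control in 6 of 6 mice and 10 of 10 culture sets, but not past the threshold (edgeR FDR 0.445 and 1). These 10 sets carry only 5 mouse numbers. Sets 2 and 4 of the EGF/AngII batch are paired with the control libraries that stood apart.

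**Figure D2:**
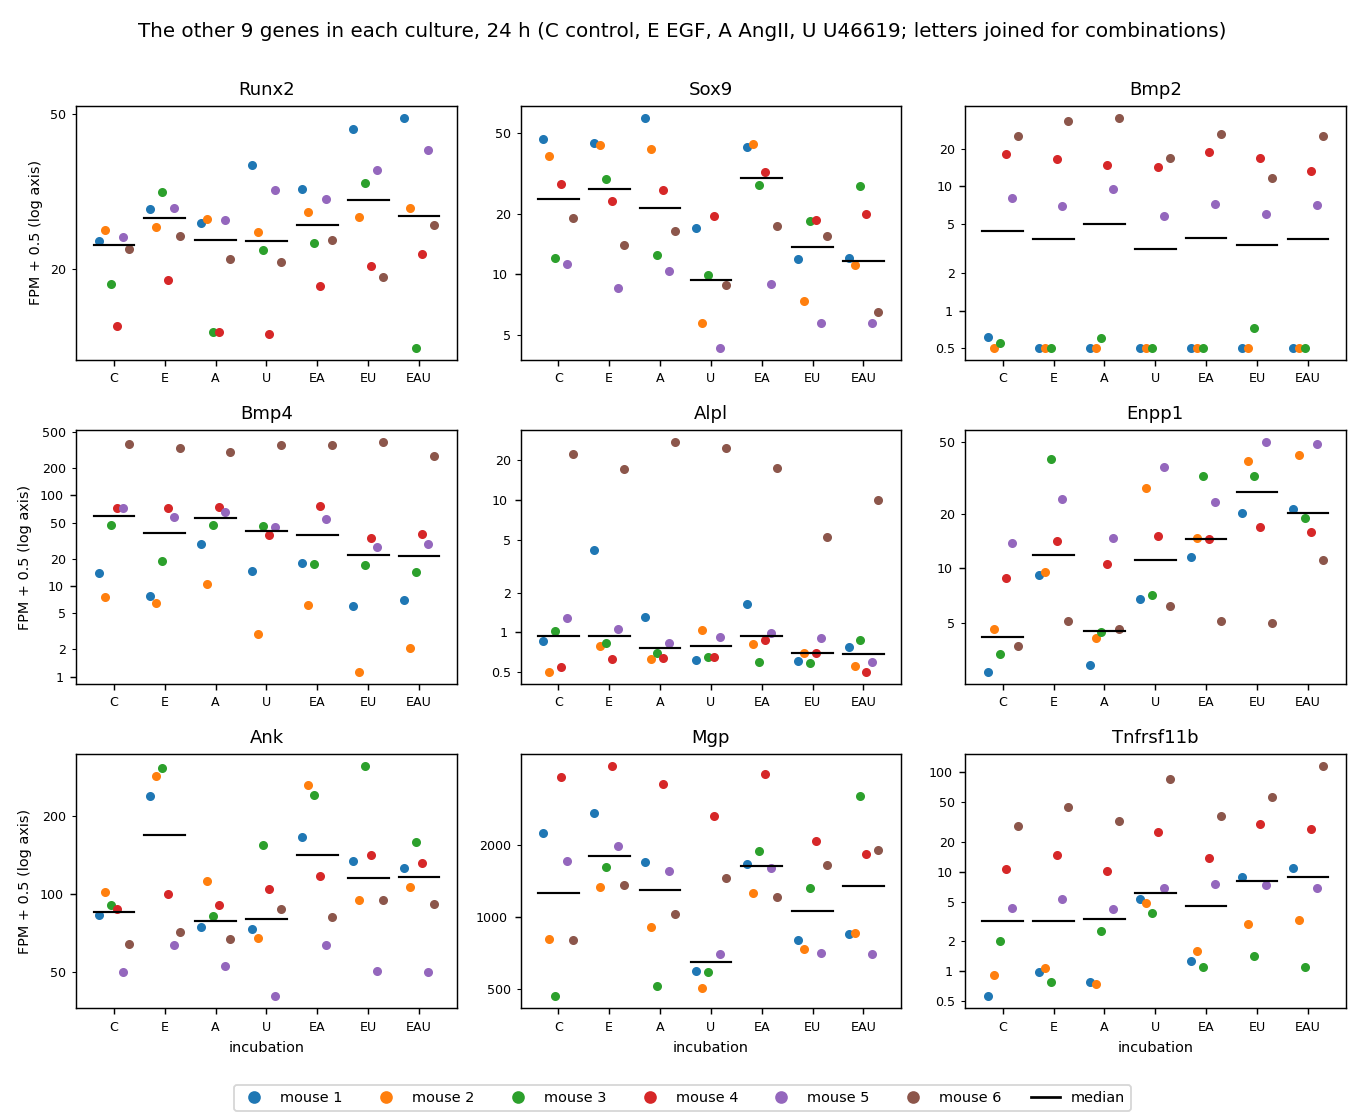
The other 9 genes in each culture after 24 h, as FPM + 0.5 on log axes, by incubation (C control, E EGF, A AngII, U U46619, with joined letters for combinations), with colours for mice and lines at group medians. Enpp1 medians go from 3.67 FPM in control to 25.8 FPM with EGF+U46619 and Sox9 medians from 23.0 to 13.2 FPM, while Bmp2, Bmp4, Alpl and Tnfrsf11b separate by mouse more than by incubation.

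Counted over the 10 genes, EGF+U46619 changed 7 after 24 h, with 5 up (Spp1, Runx2, Enpp1, Ank and Tnfrsf11b) and 2 down (Sox9 and Bmp4). Of all 14653 genes tested, 33.1% were called in this comparison, 17.0% higher and 16.1% lower. By role, 1 of the 5 osteochondrogenic factors was higher and 2 were lower, whereas 3 of the 4 inhibitors were higher and none was lower. The median log2-fold change of the 10 genes was 0.08, against −0.05 over all genes. Without mouse 1 the count was 3 (Spp1, Bmp4 and Enpp1), with only the groups compared in the fit it was 3 as well, and without the mouse as block 2 (Spp1 and Enpp1). U46619 alone changed 4 (Spp1, Enpp1 and Tnfrsf11b higher, Sox9 lower), where 27.6% of all genes were called, and without mouse 2 only Sox9 remained among them. EGF+AngII+U46619 changed 6 (34.3% of all genes), which are those of EGF+U46619 except Ank and which were 4 without mouse 1, 2 or 5 and 3 with only the groups compared, and EGF+AngII changed 3 (Spp1, Enpp1 and Ank higher, against 3.11% of all genes, 1.53% higher), a count that fell to 0 without mouse 1, 2, 3 or 5. EGF alone (0.0273% of all genes, 0.0136% in each direction) and AngII alone (0%) changed 0 of the 10 by both tools together. For EGF, 3 of them had an unadjusted edgeR p under 0.05 and DESeq2 alone called 3, and for AngII 0 had such a p and DESeq2 called 0. All of these comparisons share the control cultures.

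After 48 h, EGF+U46619 changed 2 of the 10 (Spp1 and Ank, both higher), where 6.3% of 15796 genes were called (3.53% higher, 2.77% lower), and U46619 alone changed 0, where 3.7% were called (2.28% higher). For U46619 alone, 4 of the 10 had an unadjusted edgeR p under 0.05 and DESeq2 alone called 2. Within the EGF/U46619 batch, with the culture set as block, EGF+U46619 changed 5 (Spp1, Enpp1 and Ank higher, Sox9 and Bmp4 lower), where 23.6% of all genes were called, and U46619 changed 3 (Spp1 higher, Sox9 and Bmp4 lower), where 19.3% were. With the culture set as block over both batches the counts were 4 and 2, where 13.7% and 9.79% of all genes were called. EGF, AngII and EGF+AngII changed 0 of the 10 after 48 h, with 0%, 0% and 0% of all genes called by both tools. An unadjusted edgeR p under 0.05 was found for 0, 1 and 0 of them, and DESeq2 alone called 0 in each.

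**Figure D3:**
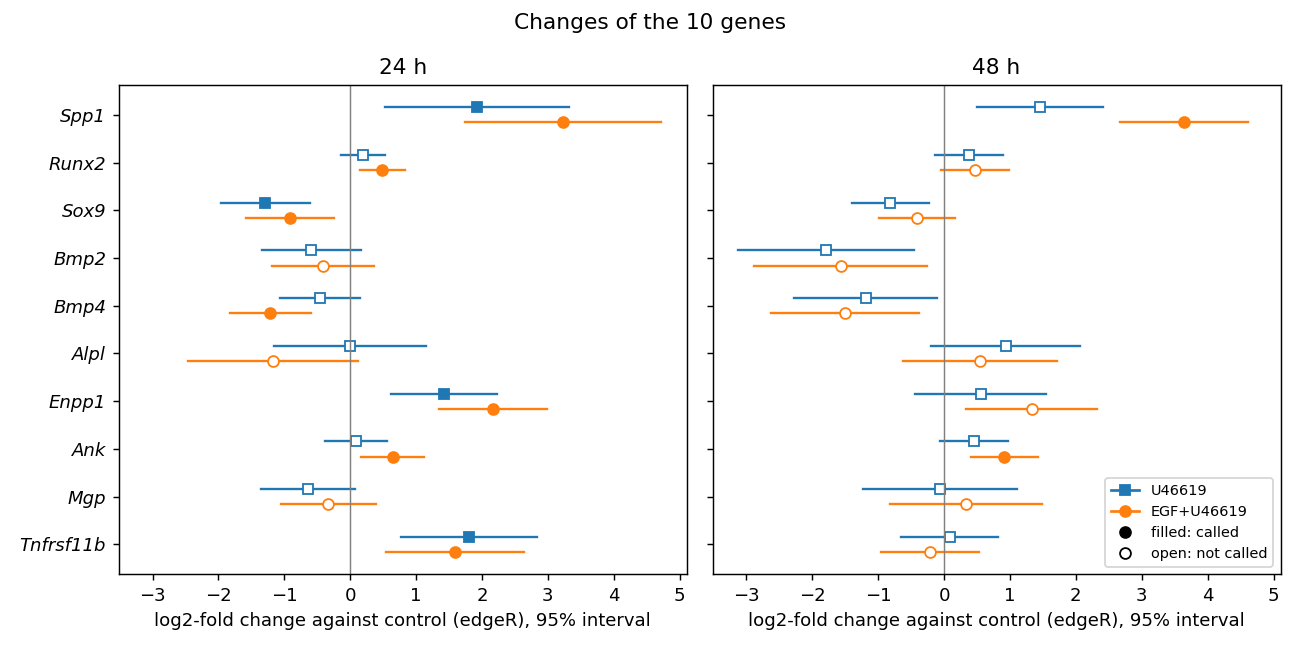
Fitted log2-fold changes against control (x axis, with 95% intervals) of the 10 genes with U46619 (squares) and EGF+U46619 (circles) after 24 h (left) and 48 h (right), where filled symbols are called. Spp1 lies farthest to the right with EGF+U46619 at both time points (3.23 and 3.65), Sox9 and Bmp4 lie left of 0 in both panels, and Tnfrsf11b lies right of 0 with both incubations after 24 h only.

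**Figure D4:**
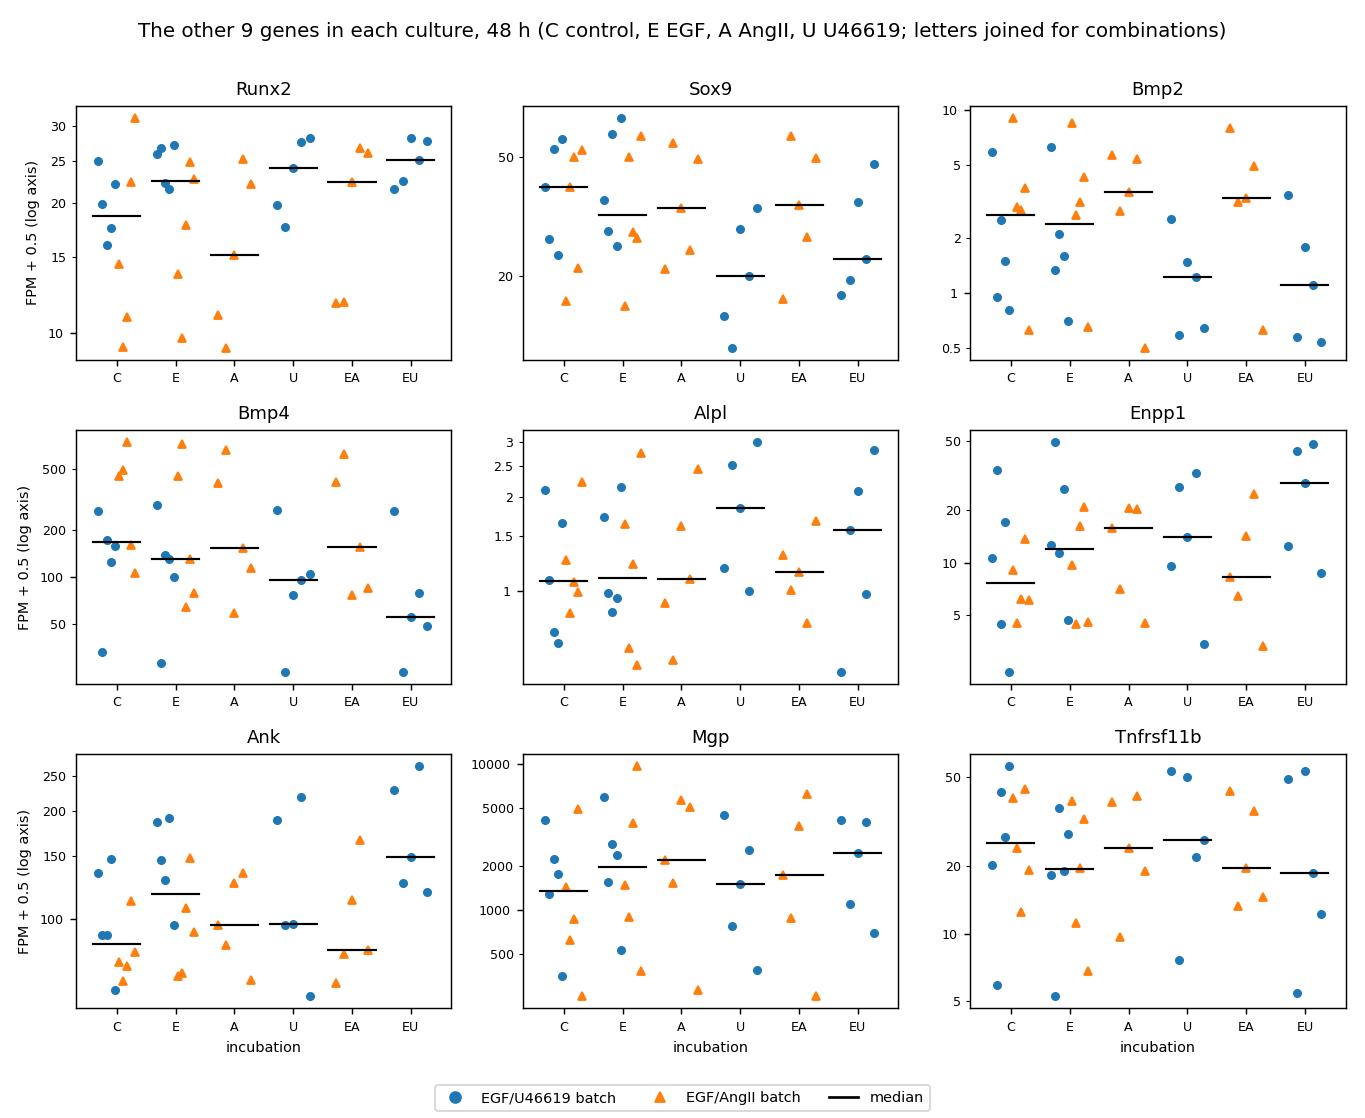
The other 9 genes in each culture after 48 h, as FPM + 0.5 on log axes, by incubation with the same letters, circles for the EGF/U46619 batch, triangles for the EGF/AngII batch and lines at group medians. Ank medians go from 84.6 FPM in control to 148.3 FPM with EGF+U46619, and Bmp4 reaches 747 FPM in a control of the EGF/AngII batch.

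The direct comparisons separated the contributions of both stimuli only in part. EGF+U46619 against EGF alone changed 2 of the 10 after 24 h, Tnfrsf11b (1.41 ± 0.50, higher in 6 of 6 mice, edgeR FDR 0.0483) and Sox9 (−0.93 ± 0.33, lower in 5 of 6 mice, edgeR FDR 0.049), where 13.2% of all genes were called (6.97% higher, 6.21% lower). Neither was called without mouse 1, 2, 4 or 5, without mouse 6 the count was 3 and Tnfrsf11b was not among them, and without mouse 3 the count was 4. After 48 h it changed Spp1 only (2.91 ± 0.46, higher in 5 of 5 culture sets, edgeR FDR 0.00034), where 4.43% of all genes were called, and within the batch 3 of the 10 changed, Spp1 (3.08 ± 0.41), Sox9 (−0.60 ± 0.14) and Bmp4 (−0.66 ± 0.19). Within the batch, 12.5% of all genes were called in this comparison. EGF+U46619 against U46619 alone changed 0 of the 10 at either time point, where 0% and 0% of all genes were called by both tools. After 24 h, 2 of the 10 had an unadjusted edgeR p under 0.05 (Bmp4 and Ank), after 48 h 1 had (Spp1), and DESeq2 alone called 0 and 0. Spp1 stood at a log2-fold change of 1.2998 ± 0.68 after 24 h (4 of 6 mice higher) and of 2.19 ± 0.56 after 48 h (5 of 5 culture sets higher, unadjusted edgeR p = 0.000419, FDR 1, DESeq2 FDR 0.124). The interaction of EGF and U46619, which asks whether the combination exceeds the sum of the log2-fold changes of its parts, was called for 0 of the 10 (0% and 0% of all genes, with an unadjusted edgeR p under 0.05 for 1 and 1, and 0 and 0 by DESeq2 alone). For Spp1 it was −1.10 ± 0.93 after 24 h and 1.45 ± 0.66 after 48 h, with 95% intervals of −2.9965 to 0.79 and 0.11 to 2.80. The 48 h value used controls of both batches, with a mean Spp1 of 37.09 FPM in the EGF/U46619 and 91.19 FPM in the EGF/AngII batch. Within the EGF/U46619 batch, 0.00633% of all genes were called for EGF+U46619 against U46619 and 0% for the interaction. Values of the 10 genes within the batch are not given for these comparisons. AngII added to EGF or to EGF+U46619 changed 0 of the 10 after 24 h (0% and 0% of all genes, no unadjusted edgeR p under 0.05 among the 10, and 0 and 0 by DESeq2 alone).

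Several of these genes followed the mouse rather than the incubation after 24 h, together with endothelial markers. In the 21 cultures of mice 1 to 3, Pecam1 lay between 0 and 5.88 FPM, Tie1 between 0 and 2.05 FPM and Emcn between 0 and 2.26 FPM, and in the 21 cultures of mice 4 to 6 at 141 to 920 FPM, 73.6 to 458 FPM and 53.9 to 742 FPM. Vwf behaved alike (0.379 to 3.1 and 19.1 to 344 FPM), Kdr did not (0.138 to 49.3 and 3.0 to 14.2 FPM), and Cdh5 is listed at 0 in all libraries. The same mice differed in Spp1 of the 24 h controls (1.92, 6.78 and 5.04 FPM in mice 1 to 3, 70.2, 39.5 and 109 FPM in mice 4 to 6). Over all 7 incubations these ranges of Spp1 overlapped (1.92 to 531 and 38.4 to 612 FPM). Mice 1 to 3 and mice 4 to 6 also differed in Bmp2 (at most 0.23 and at least 5.34 FPM). Mouse 6, with the most Pecam1, had the highest Bmp4, Alpl and Tnfrsf11b. The 48 h controls did not all go this way. The highest Tnfrsf11b of these 10 cultures (55.7 FPM) was found in replicate 5 of the EGF/U46619 batch at 0.343 FPM of Pecam1, and the highest Alpl (1.73 FPM) in replicate 6 of the EGF/AngII batch at 4.26 FPM of Pecam1. The summed endothelial markers ranged from 4.37 to 2128 FPM in control and from 1.81 to 2472 FPM with EGF+U46619, so both groups held cultures with and without them, and the median log2-fold change of the 5 markers tested was −0.34. In the 48 h cultures of the EGF/U46619 batch, where Bmp4 was also lower, the sums were 12.3 to 978 FPM in control (median 146.5), 12.2 to 905 FPM with U46619 (median 120.8) and 4.67 to 1011 FPM with EGF+U46619 (median 121), and the median log2-fold change of the 5 markers with EGF+U46619 was −0.06 within the batch. Controls of the EGF/AngII batch had sums of 15.1 to 2305 FPM. The part of endothelial cells in the levels of Spp1, Bmp2, Bmp4, Alpl and Tnfrsf11b was not tested. In these bulk samples fewer cells of a type and less RNA per cell cannot be told apart.

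**Figure D5:**
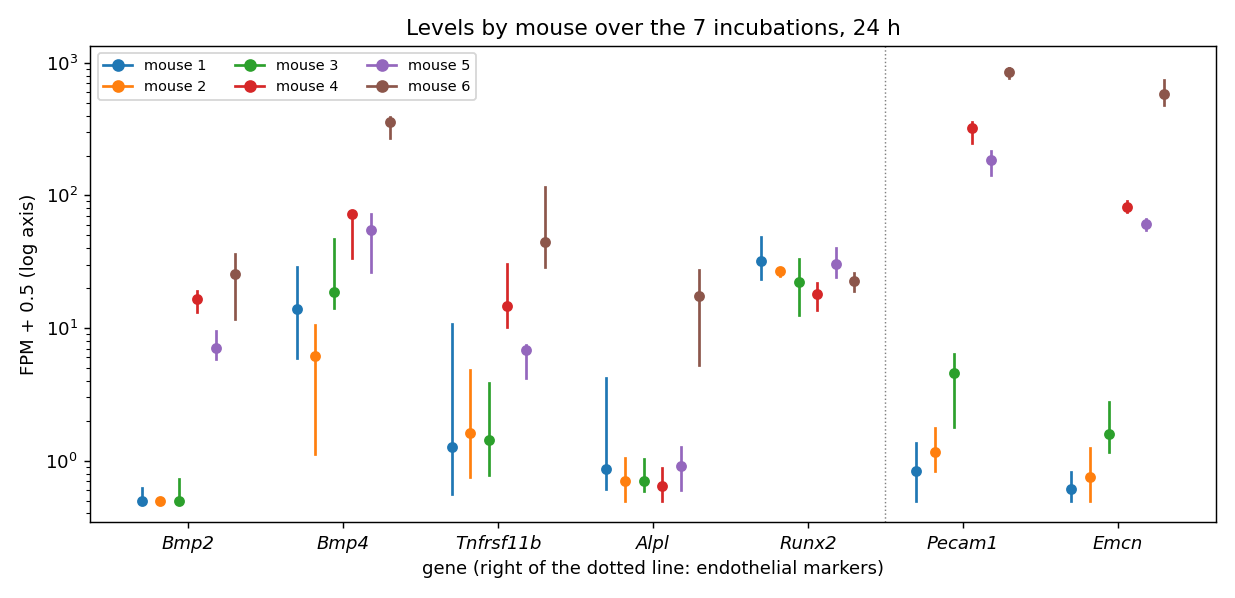
Levels of 5 osteogenic and calcification regulators and of the endothelial markers Pecam1 and Emcn in the 24 h cultures, as FPM + 0.5 on a log axis, by gene and mouse, with points at the median and bars from the lowest to the highest of the 7 incubations of a mouse. Bmp2 is at most 0.23 FPM in mice 1 to 3 and at least 5.34 FPM in mice 4 to 6, as Pecam1 differs between them, whereas Runx2 shows no such split.

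Other marker lists moved with the incubations. Of all genes, 33.1% were called with EGF+U46619 after 24 h. The share was 6.3% after 48 h against all controls and 23.6% within the EGF/U46619 batch. All 6 fibroblast markers tested were lower with EGF+U46619 after 24 h, with a median log2-fold change of −1.82, and their summed level was 164.1 to 979.5 FPM against 377.6 to 3148 FPM in control. After 48 h, 2 of 6 were lower against all controls and 5 of 6 within the EGF/U46619 batch, with sums of 214.4 to 1439 FPM against 262 to 2429 FPM in the controls of that batch. The summed smooth muscle markers were 2671 to 16620.0 FPM with EGF+U46619 and 1900.0 to 7992 FPM in control, with 2 of 6 called higher and 1 lower after 24 h. Within the EGF/U46619 batch of 48 h, by contrast, 1 of 6 was higher and 5 were lower (median −0.79), with sums of 1626 to 6558 FPM against 2651 to 10050.0 FPM in control. Of the macrophage markers, 4 were tested after 24 h, of which 1 was higher and 2 were lower, with sums of 23.3 to 63.9 FPM against 21.8 to 117 FPM in control. The part of these cell types in the changes of Sox9, Bmp4 and the other genes was not tested.

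Across the 6 mice, the change of Spp1 with EGF+U46619 after 24 h was compared with that of each of the other 9 genes. The closest relation was with Enpp1 (Pearson's r = 0.829, exact permutation p = 0.0514, adjusted p = 0.429, and Spearman's rho = 0.886, exact permutation p = 0.0333, adjusted p = 0.15), followed by Bmp4 (r = −0.662, exact permutation p = 0.143, adjusted p = 0.429, rho = −0.886, exact permutation p = 0.0333, adjusted p = 0.15). None of the 9 was past the threshold after adjustment. Without the 2 mice farthest from the median change of Spp1, r was 0.685 for Enpp1 and −0.49 for Bmp4 over the remaining 4. No relation is given for Bmp2, which had at most 5 counts in the cultures of 3 of the 6 mice. For Runx2 it was 0.238 (exact permutation p = 0.639, adjusted p = 0.822, rho = 0.314) over 6 mice and 0.429 over 4. Thus mice with a larger rise of Spp1 did not show a detectably larger rise of Runx2 in this small number.

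As a description over all cultures, genes were ranked by their correlation with Spp1 after subtraction of the mean of each mouse (42 libraries of 24 h) or culture set (40 libraries of 48 h), using the lower of both values. These points share libraries and mice, so no p is given. Of 10308 genes ranked, the 5 most like Spp1 were Il1rl1 (r = 0.809 and 0.951), the receptor for interleukin-33, Errfi1 (0.838 and 0.795), a feedback inhibitor of EGFR, Pi4k2b (0.785 and 0.806), a phosphatidylinositol 4-kinase, Hmga2 (0.815 and 0.782), a chromatin protein, and Tnfrsf23 (0.839 and 0.771), a member of the TNF receptor family. Enpp1 ranked 15th of all (0.91 and 0.742) and Ank 352nd (0.539 and 0.689). Of the osteochondrogenic factors, Runx2 stood at rank 984 (0.397 and 0.425) and Sox9 at 6886 (−0.215 and −0.354). Bmp4 stood at 10064, with an inverse relation (−0.752 and −0.574). The inhibitors Mgp, at 1471, and Tnfrsf11b, at 5623, ranked farther from Spp1 than Runx2, so the ranks did not separate by role. Bmp2 and Alpl, with all group means under 5 FPM after 48 h, were not ranked. With EGF+U46619, Il1rl1 had a log2-fold change of 4.28 ± 0.54 after 24 h (edgeR FDR 8.95e-07) and of 3.99 ± 0.68 after 48 h (edgeR FDR 0.000495). The effect of the incubations remained in the ranking that picked Il1rl1 from these libraries, so this change is no separate evidence.

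In the wider lists, counts are set beside the 33.1% of all genes called with EGF+U46619 after 24 h, the 6.3% called after 48 h and the 23.6% called within the EGF/U46619 batch. Of 15 further transcription factors and partners, 13 were tested after 24 h, and with EGF+U46619 2 rose, 3 fell and 8 were not called, a share near that of all genes (median log2-fold change −0.31 against −0.05 over all genes). Runx1, a relative of Runx2 known from blood cell development, rose by 2.07 ± 0.36 (edgeR FDR 4.14e-05), from a median of 10.3 FPM (6.62 to 57.1) to 65.4 FPM (26.9 to 123). Sox5, a partner of Sox9 in cartilage, fell by 0.95 on the log2 scale (edgeR FDR 0.00314), Twist2, which restrains Runx2, by 0.87 (edgeR FDR 0.0114) and Msx1 by 0.735 (edgeR FDR 0.000162). After 48 h, 0 of the 12 tested were called, although 4 had an unadjusted edgeR p under 0.05 and 2 a DESeq2 FDR under 0.05 (Msx1 and Sox6, named after their values were seen). Sox6 also had an edgeR FDR of 0.0493, but its mean was at most 1.29 FPM in the groups compared, under the 5 FPM that a call requires. Within the batch, 4 of 12 were called, with Runx1 higher (0.92 ± 0.16, edgeR FDR 0.000376) and Twist1, Twist2 and Msx1 lower (−0.304, −0.44 and −0.67). Sox5, lower after 24 h, was at 0.103 ± 0.167 within the 48 h batch (edgeR FDR 0.687) and not called. Of 16 bone and cartilage matrix genes, 12 were tested after 24 h and only Col1a2, which encodes a chain of collagen type I, was called, lower by a log2-fold change of −0.88 ± 0.24 (edgeR FDR 0.00367), with a median of −0.49 over the list. After 48 h, 1 of 13 was called, Omd (osteomodulin), with a log2-fold change of −3.575 (edgeR FDR 0.00217) and of −3.19 within the batch (edgeR FDR 1.89e-06), where 4 of 13 were called, all lower, a gene picked for mention once its values were known. Col1a2 was among those called within the batch (−0.38 ± 0.119, edgeR FDR 0.023).

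Of 19 of 25 further BMP ligands, receptors, mediators and antagonists tested after 24 h (4 of the others lie on the chromosomes listed at 0), 3 rose and 5 fell with EGF+U46619, with a median of −0.06, and after 48 h 1 of 20 was higher and 2 were lower, against 3 higher and 6 lower within the batch, both directions being found at either time. Bmpr1b, a type I receptor for BMPs, rose at both time points (2.27 ± 0.36, edgeR FDR 1.43e-05, and 1.02 ± 0.25, edgeR FDR 0.00861), from a median of 1.31 to 4.89 FPM after 24 h and from 3.2 to 7.31 FPM after 48 h. Id2, a target gene of BMP signalling, fell by 1.36 and 1.44 on the log2 scale (edgeR FDR 4.7e-05 and 0.0105), and Fst (follistatin), an antagonist of activins and BMPs, had log2-fold changes of −1.21 and −1.503 (edgeR FDR 0.00249 and 0.0197). Within the 48 h batch the changes were 0.86 for Bmpr1b, −1.34 for Id2 and −1.47 for Fst, each called.

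Of 9 listed genes of phosphate and pyrophosphate handling, 7 were tested after 24 h, and with EGF+U46619 4 rose and 0 fell (median 0.45 against −0.05 over all genes), and 2 of 8 were higher after 48 h, 4 of 8 within the batch. Slc20a2, a sodium-dependent phosphate importer, rose by 0.975 ± 0.216 (edgeR FDR 0.000593) from 42 to 107 FPM in control to 68 to 316 FPM, and by 0.89 ± 0.12 after 48 h (edgeR FDR 4.89e-05), where the 5 cultures at 81.4 to 104 FPM lay above all 10 controls at 39.7 to 63.8 FPM. Xpr1, a phosphate exporter, rose by 0.45 ± 0.15 and 0.49 ± 0.13 (edgeR FDR 0.0139 and 0.0166). Within the batch these rises were 0.8 ± 0.07 for Slc20a2 and 0.6 ± 0.09 for Xpr1, both called. Importer and exporter, and among the 10 genes Enpp1 and Ank, were thus all higher after 24 h.

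Of 12 other calcification inhibitors and members of the RANK system, 7 were tested after 24 h, and 1 rose and 3 fell with EGF+U46619 (median −0.45), and 2 of 9 were lower after 48 h, 2 of 9 also within the batch. Gas6, a vitamin K-dependent ligand of TAM receptors, fell by 2.82 ± 0.36 on the log2 scale (edgeR FDR 9.19e-07), from 1256 to 4844 FPM in control to 98.5 to 1090.0 FPM with EGF+U46619, which did not overlap, and by 2.16 ± 0.39 after 48 h (edgeR FDR 0.000858). Vkorc1, the reductase that regenerates vitamin K, fell by 0.88 and 0.95 (edgeR FDR 0.0103 and 0.0494). Their log2-fold changes within the batch were −2.35 for Gas6 and −0.89 for Vkorc1, both called. Mgp, whose protein needs vitamin K for its activity, was not called with all mice, as given above.

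Of 9 osteopontin receptors, 7 were tested, of which 4 were higher and 1 lower with EGF+U46619 after 24 h (median 1.035 against −0.05 over all genes) and 2 were higher after 48 h, 4 within the batch. Cd44 rose by 2.24 ± 0.28 (edgeR FDR 7.24e-07), from 26.4 to 115 FPM in control to 186.1 to 453 FPM, which did not overlap, and by 1.08 ± 0.19 after 48 h (edgeR FDR 0.000678). Itgav, the alpha chain of the integrin that binds osteopontin, rose by 1.035 ± 0.172, from 86.2 to 168.2 FPM (median 122) to as much as 382 FPM (median 229) without overlap (edgeR FDR 2.48e-05), and by 0.65 ± 0.13 after 48 h (edgeR FDR 0.00235). Within the batch Cd44 rose by 1.07 ± 0.15 and Itgav by 0.64 ± 0.12. With U46619 alone, Cd44 was called at both time points as well (2.101 ± 0.275 and 0.94 ± 0.19, edgeR FDR 4.56e-06 and 0.00393), whereas EGF alone gave 0.77 ± 0.27 after 24 h (edgeR FDR 0.133).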

How the data were processed

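Poly(A)-enriched RNA of 82 libraries (42 of 24 h, 40 of 48 h) was sequenced. Raw counts per gene were deposited by the authors, who, per their processing notes and methods, used HISAT2 (version 2.1.0, mm10) for alignment and featureCounts for counting, multi-mapping reads included. Depth was 16483529 to 20818809 counts per library after 24 h and 19936925 to 33916114 after 48 h. Each time point was fitted on all its groups with group and mouse as terms, using edgeR (version 4.0.16, quasi-likelihood test) and DESeq2 (version 1.42.0, Wald test) in R (version 4.3.3), with Benjamini-Hochberg adjustment over the 14653 and 15796 genes past filterByExpr. Permutation tests were two-sided. The 24 h mouse numbers pair the cultures, as 126 of 126 same-numbered pairs of libraries deviated together (correlation over 0.1, median 0.776). After 48 h, the labels give 5 mouse numbers for 10 culture sets, whereas the methods state a different mouse per replicate, so the culture set as block and 1 batch alone were alternatives, and 57 of 60 pairs within culture sets deviated together. Where sets share a mouse, p-values partly measure the spread between cultures of 1 animal. Libraries of a group were distinct. Named were the 10 genes, up to 4 called genes of each list by size of change, 5 genes for their level, and the 5 genes most like Spp1. The 10 genes and all lists were chosen with earlier results of these data known. The fitting was tested on simulated data.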

Additional observations from a re-analysis of the deposited data

Results flagged for a closer look

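In 29 of 130 combinations of a gene and a group of cultures, the highest value lay far from the others by Dixon's test. Chance passes this test in about 1 of 20 independent cases, but the same mice recur in the groups of 24 h, so these cases are not independent. Most of the 29 values were from the culture of mouse 6 after 24 h. Mouse 6 was the highest for Bmp4 in all 7 groups, at 368 FPM in control, 331 FPM with EGF, 298 FPM with AngII, 355 FPM with U46619, 355 FPM with EGF+AngII, 390.0 FPM with EGF+U46619 and 269 FPM with EGF+AngII+U46619. It was likewise the highest for Alpl, at 21.6, 16.6, 27.0, 24.1, 16.8, 4.75 and 9.55 FPM in the same order of groups. For Tnfrsf11b it stood apart in 6 groups, at 28.5 FPM in control, 44.3 FPM with EGF, 31.4 FPM with AngII, 84.0 FPM with U46619, 35.4 FPM with EGF+AngII and 115 FPM with EGF+AngII+U46619. For Spp1 it stood apart with U46619 (612 FPM).

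Mouse 3 stood apart for Spp1 with EGF (363 FPM) and EGF+AngII (397 FPM) and for Ank with EGF+U46619 (311 FPM), and mouse 4 for Mgp with EGF+AngII (3970.0 FPM). After 48 h, Spp1 stood apart in control replicate 1 of the EGF/AngII batch (192 FPM), Bmp4 in EGF+U46619 replicate 1 of the EGF/U46619 batch (266 FPM), and Enpp1 in replicate 2 of that batch in control (33.7 FPM) and with EGF (49.3 FPM).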

How the results depend on the processing

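The number of the 10 genes called moved by more than 1.5 times as follows. Without the replicate block (mouse), the counts after 24 h were 2 for EGF+U46619, 1 for the triple combination and 0, 0 and 0 for U46619, EGF+AngII and EGF+U46619 against EGF, and after 48 h 1 for EGF+U46619. With only the groups compared in the fit, they were 0 for EGF+AngII, 3 for EGF+U46619, 3 for the triple combination and 0 for EGF+U46619 against EGF after 24 h, and 0 for the latter after 48 h. EGF after 24 h reached 3 with DESeq2 alone and 3 without a filter on low counts. DESeq2 alone gave 2 for U46619 and 4 for EGF+U46619 after 48 h. At that time, the EGF/U46619 batch alone gave 3, 5 and 3 for U46619, EGF+U46619 and EGF+U46619 against EGF, the culture set as replicate block 2, 4 and 2, and the batch as a further term 1 and 1 for the first 2 of these. In the same order, the batch alone called 19.3%, 23.6% and 12.5% of all genes, and the culture set as block 9.79%, 13.7% and 12.1%. Without control libraries 2 and 4 of the EGF/AngII batch, chosen after seeing the data, EGF+U46619 gave 1. The cause of these differences was not tested.

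Leaving out 1 mouse gave 0 to 2 for EGF (2 without mouse 6), 1 to 5 for U46619 (1 without mouse 2), 0 to 3 for EGF+AngII (0 without mouse 1, 2, 3 or 5), 3 to 7 for EGF+U46619 (3 without mouse 1) and 0 to 4 for EGF+U46619 against EGF (0 without mouse 1, 2, 4 or 5, 4 without mouse 3, 3 without mouse 6). Leaving out 1 culture set of 48 h gave 0 to 2 for U46619 (2 and 1 without sets 1 and 2 of the EGF/AngII batch) and 1 to 3 for EGF+U46619 (1 without set 1, 3 or 4 of the EGF/U46619 batch, 3 without set 4 of the EGF/AngII batch). Directions turned only for changes that were not called. Without the replicate block, U46619 gave 0.13 for Alpl after 24 h and 0.121 for Mgp after 48 h, and without both control libraries −0.054 for Tnfrsf11b after 48 h. With 1 mouse or set left out, U46619 gave −0.395 to 0.233 for Alpl and −0.028 to 0.197 for Ank after 24 h, and −0.074 to 0.769 for Enpp1, −0.378 to 0.196 for Mgp and −0.255 to 0.29 for Tnfrsf11b after 48 h, where EGF+U46619 gave −0.663 to 0.117 for Tnfrsf11b. Pearson's r with the change of Spp1 ranged from −0.102 to 0.518 for Runx2, −0.815 to 0.523 for Sox9, −0.278 to 0.587 for Alpl, −0.85 to 0.698 for Ank, −0.025 to 0.81 for Mgp and −0.526 to 0.053 for Tnfrsf11b. Counting depth limits Bmp2 in the cultures of mice 1 to 3, which held at most 5 counts.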
